A study of Mus musculus with 22 samples.

Results

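Naive CD8 T cells of wild-type mice were compared with cells of the same mice after 24 h of activation through the T cell receptor. The comparison used 6 of the 22 RNA sequencing libraries of the series, namely those with the genotype label wtcre, from the line Tcaim KI Cd4Cre, whose activation label was naive (3 libraries) or 24 h (3 libraries). The naive and the 24 h library of a mouse were paired by the experiment number in the labels, which gave 1 mouse each in experiments 1, 3 and 5. The mice of experiments 1 and 3 were male and the mouse of experiment 5 was female, so that sex and experiment cannot be told apart in that mouse. The labels give no age. In this line a Cre recombinase is driven by Cd4, which precursors of CD4 and CD8 T cells both express in the thymus. The genotype wtcre is the genotype that the series counts as wild type. Naive CD8 T cells were enriched from lymph nodes and spleen by magnetic depletion, with no positive selection named in the labels. They were stimulated with plate-bound anti-CD3 at 2 µg/ml and soluble anti-CD28 at 1 µg/ml. Naive cells came straight from tissue and activated cells from culture, so stimulation and time in culture cannot be told apart. The rest of the series holds 48 h libraries of the same mice and libraries of Tcaim knock-in and knockout lines, which entered the model that estimated the spread between libraries. The wild-type comparison gives the activation response against which the series sets the effect of Tcaim, a mitochondrial protein.

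A naive CD8 T cell circulates between blood and lymph nodes in a resting state kept by transcription factors such as KLF2 and FOXO1 and by survival signals from interleukin 7. When its receptor and the costimulatory receptor CD28 are engaged, immediate-early genes are transcribed within minutes and shut off again, MYC and mTOR signalling turn on nutrient uptake and biosynthesis, and the cell grows before it enters the cell cycle. Division and the production of cytotoxic molecules such as granzymes and of the cytokine interferon gamma follow. A sample at 24 h thus looks at cells that have been growing for some hours.

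The 6 libraries held 62551905 to 87452836 counted fragments each, within the range of the whole series (62551905 to 93489115). Along the leading principal component of the 2000 most variable genes, which held 84.6% of their variance, the naive libraries lay at -68.5, -76.9 and -79.6 and the 24 h libraries of experiments 1, 3 and 5 at 84.1, 86.4 and 54.5. The activated library of experiment 5 thus lay closest to the naive ones, and results that rest on it are given per mouse. Values are counts scaled to an equal library total by TMM (CPM), in the order of experiments 1, 3 and 5 where 3 values are listed, and as mean ± SD over the 3 mice (n = 3) elsewhere. Fold changes are log2 estimates of 24 h over naive from edgeR's quasi-likelihood test with the mouse as a block. The SE beside them is the absolute log2 fold change over the square root of that test's F statistic. It is therefore not separate from the p-value. Medians by mouse are instead medians of differences of log2 of CPM plus 0.5, a measure that shrinks changes of genes with few counts. A gene is said to have risen or fallen where its Benjamini-Hochberg adjusted p over all tested genes was under 0.05.

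Of 21183 genes tested, 10798 (51.0%) passed that threshold, 5788 (27.3%) with higher and 5010 (23.7%) with lower levels at 24 h. At least a 2-fold change was estimated for 3226 of the genes that rose and 3007 of those that fell, and at least an 8-fold change for 643 and 846. Under upper-quartile scaling, which moved the median change of all genes from -0.05 to -0.23, 41.8% of the calls were higher at 24 h against 53.6% under TMM scaling, so small changes are read relative to these medians. The 3 libraries of 24 h did not overlap the 3 naive libraries for 13714 genes (64.7%). With a call for 51.0% of all tested genes, a call for any given gene is common, and each list of genes is described by its counts and its median beside these shares and the median of -0.05 over all genes.

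**Figure D1:**
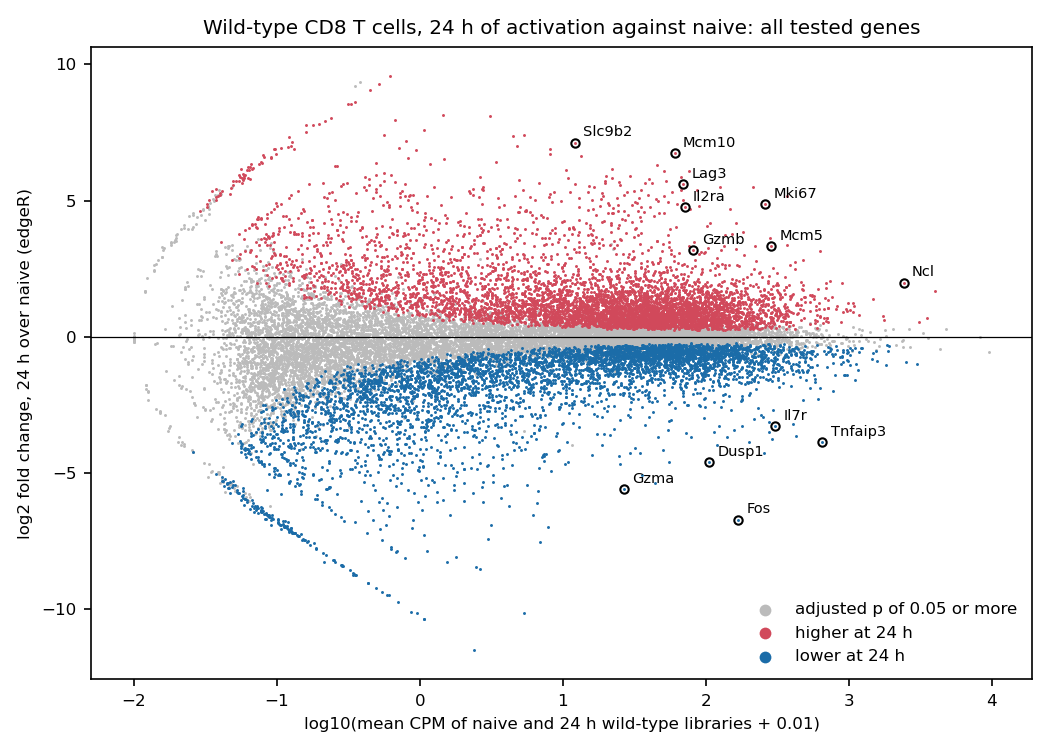
Each point is 1 of 21183 tested genes. The horizontal axis is log10 of the mean CPM over the naive and 24 h wild-type libraries plus 0.01, and the vertical axis is the log2 fold change of 24 h over naive. Red and blue points are genes that were higher (5788) or lower (5010) at 24 h at an adjusted p under 0.05, grey points did not pass, and some genes named in the text are circled. The diagonal edges at the left are genes with no count in one of the groups.

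The largest changes were taken among called genes with symbols in the authors' list and at least 20 CPM in the higher group. Only genes whose libraries did not overlap between groups were eligible. The largest rises were in genes of DNA replication and division and in a few metabolic and transport genes. Slc9b2, which encodes a sodium/proton exchanger, stood at 0.168, 0.0742 and 0.285 CPM in the naive libraries and 24.9, 19.1 and 28.1 CPM at 24 h (log2 fold change 7.13, SE 0.36, adjusted p = 5.48e-09). Bcat1, the cytosolic branched-chain aminotransferase, had 0.915, 1.29 and 1.22 CPM in the naive libraries and 91.3, 111 and 70.2 CPM at 24 h (log2 fold change 6.30, SE 0.23, adjusted p = 4.74e-10). Mcm10, which helps to activate the replicative helicase and lies on GRCm38 chromosome 2, 4989714 to 5012791, had 1.06, 1.39 and 0.839 CPM in the naive libraries and 127, 158 and 75 CPM at 24 h (log2 fold change 6.74, SE 0.34, adjusted p = 5.37e-09). The activated library of experiment 5 was the lowest of the 3 for Mcm10 and Bcat1 but the highest for Slc9b2. The other 9 of the 12 largest rises were BC030867 (6.64), Shcbp1 (6.16), Dtl (6.09), Kntc1 (6.08), Bub1 (5.91), Esco2 (5.89), Pclaf (5.87), Pbk (5.84) and Aurkb (5.79). Bub1, Aurkb and Kntc1 act at the mitotic spindle, Dtl and Pclaf work with PCNA during replication, and Esco2 joins sister chromatids.

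The largest falls were of another kind. Fos, the AP-1 subunit on GRCm38 chromosome 12, 85473890 to 85477273, went from 285, 365 and 353 CPM in the naive libraries to 1.94, 3.46 and 4.55 CPM at 24 h (log2 fold change -6.71, SE 0.23, adjusted p = 4.74e-10). Dusp1, a phosphatase that switches off MAP kinases, went from 186, 234 and 187 to 7.32, 7.5 and 9.94 CPM (log2 fold change -4.61, SE 0.19, adjusted p = 1.21e-09), and its exons overlap those of Ergic1 on the opposite strand. Sgk1, a kinase induced by growth factors and stress, had 110, 92.4 and 112 CPM in the naive libraries and 3.63, 2.45 and 8.58 CPM at 24 h (log2 fold change -4.58, SE 0.34, adjusted p = 1.13e-07). P2rx7, the receptor for extracellular ATP, had 20.8, 20.7 and 20.7 CPM in the naive libraries and 0.692, 1.06 and 0.868 CPM at 24 h (log2 fold change -4.58, SE 0.27, adjusted p = 2.1e-08). No 24 h library reached a naive one in any of these genes, as the rule that took them required. Klf4 (-4.35), Ppp1r15a (-4.28), Fosb (-4.27), Ggt1 (-5.09) and Oas2 (-4.39) were also among the 12. The remaining members, Gzma (-5.60), Lyz2 (-5.37) and Cr2 (-4.66), are products of effector or natural killer cells, myeloid cells and B cells, which are taken up with the markers of those cells.

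The cells carried the markers of CD8 T cells at both times. Per length, in the deposited FPKM (here the normalised count over gene length), Cd8a stood at 416 ± 26.1 in naive and 292 ± 24.4 at 24 h and Cd8b1, the beta chain of the co-receptor, at 899 ± 96.4 and 504 ± 48. Cd4 was at 12.3 ± 4.61 and 5.23 ± 2.69 on the same scale. In CPM, Cd8a fell from 1272 ± 88.2 to 948 ± 71.9 CPM (log2 fold change -0.43, SE 0.14, adjusted p = 0.022) and Cd8b1 from 1123 ± 131 to 668 ± 57.6 CPM (log2 fold change -0.75, SE 0.14, adjusted p = 0.000342), although the call for Cd8a was lost without experiment 1 or 5 (adjusted p up to 0.109). Cd3e, a signalling chain of the receptor, was at 398 and 347 CPM and did not pass the test (adjusted p = 0.318). Of the 7 markers listed for CD8 T cells 4 fell and 3 did not pass, with a median of -0.43. The number that fell was 2 without the mouse of experiment 1 or 5. Cd3g was among those that fell, but had an adjusted p of 0.0738 without experiment 5.

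Markers of other blood cells were present in the naive libraries and lower at 24 h. All 12 B cell markers fell (median -2.04), although 7 were called with no mouse block and 8 with the experiment as the block. Falls were also called for 7 of 8 natural killer cell markers (median -4.70), 13 of 16 markers of myeloid and dendritic cells (median -2.72) and 10 of 12 of granulocytes, platelets and red cells (median -4.72, or -4.53 with Pf4, at 0 in every 24 h library, set to the bound that 3 counts over the group allow). The summed B cell markers went from 1303, 1569 and 1738 to 731, 727 and 1112 CPM, a large part of it Ighm (mean 844 and 639 CPM, highest adjusted p over the alternatives 0.161), and the myeloid sum from 818, 1316 and 1545 to 200, 315 and 543 CPM, of which Cd74 made 606 and 186 CPM. The natural killer sum went from 68.5, 140 and 142 to 50.1, 86.7 and 49.3 CPM and at 24 h was mostly Eomes, which CD8 T cells also express (39 and 58.4 CPM, adjusted p = 0.0588). C1qa, a macrophage complement gene, had 966 counts over the naive libraries and 0 over the 24 h libraries, at least 375-fold lower against 3 counts over the group. Of the 6 markers listed for CD4, regulatory and gamma delta T cells 3 fell (1 with no mouse block or with the experiment as the block), among them Cd4 (-1.23, not called with the experiment as the block, adjusted p = 0.225) and Trdc (-1.83), and 1, Ikzf4, rose (1.66). For the B cell, natural killer, myeloid and granulocyte lists, no summed level at 24 h reached the naive level of the same mouse, and the 24 h library of experiment 5 kept the highest B cell and myeloid sums. Foxp3, the factor of regulatory T cells, stood at 19.5 and 17.5 CPM and did not pass (adjusted p = 0.368). In bulk samples, fewer cells of a type and less RNA per cell cannot be told apart, and this holds for every fall described here.

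**Figure D2:**
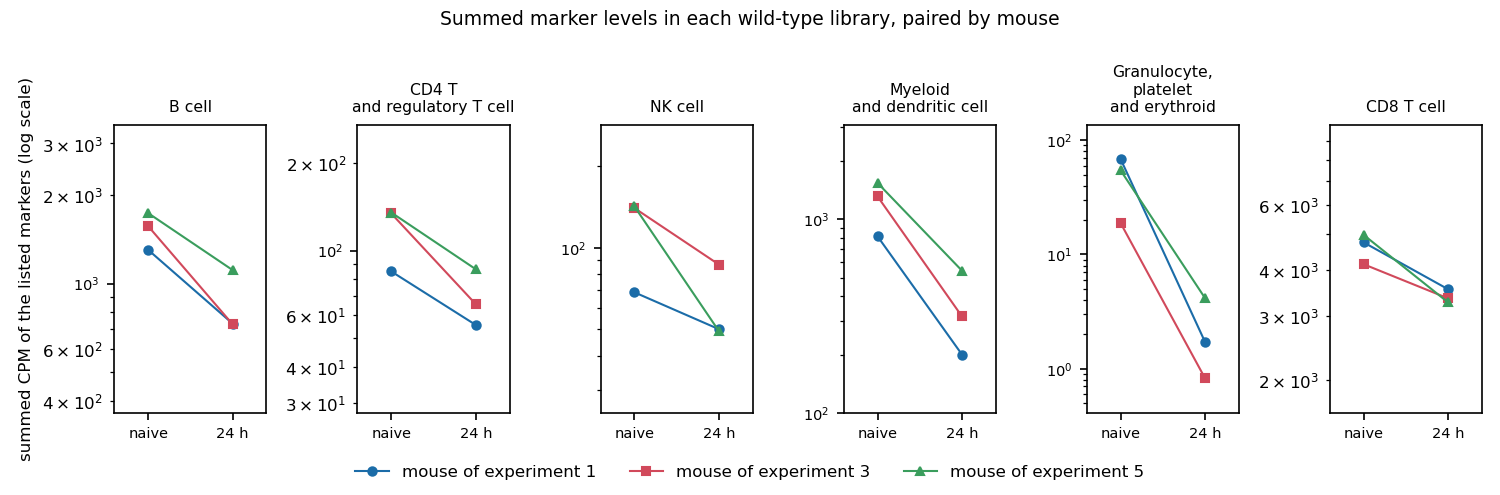
Summed CPM of the listed markers of each cell type (vertical axes, log scale) in the naive and 24 h wild-type libraries (horizontal axis), with a line for each mouse. All lines run down, the steepest being those of granulocyte, platelet and erythroid markers, from 68.3, 18.8 and 54.4 CPM in the naive libraries to 1.71, 0.823 and 4.14 CPM at 24 h.

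Immediate-early and feedback genes, which cells switch on within minutes of a signal and which limit it afterwards, were mostly lower at 24 h than in the naive libraries. Of 35 such genes tested 22 fell, 6 rose and 7 did not pass, with a median of -1.28, and the medians by mouse were -1.04, -1.51 and -0.91. The AP-1 genes Jun (369 ± 52.4 to 28.8 ± 14.3 CPM, log2 fold change -3.85), Junb (788 ± 148 to 62.9 ± 10.8 CPM, -3.65) and Fosb (65.9 ± 27.8 to 3.54 ± 1.43 CPM, -4.27) fell with Fos. Tnfaip3, which encodes the NF-kB inhibitor A20, went from 1230 ± 556 to 77.9 ± 11.5 CPM (log2 fold change -3.88, SE 0.34, adjusted p = 6.29e-07). The RNA-binding proteins that speed the decay of AU-rich transcripts fell together, with Zfp36 at -3.49, Zfp36l2 at -2.32 (log2 fold changes) and Zfp36l1 at 324 and 164 CPM.

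The 6 members that rose were Nr4a3, Egr2, Egr3, Spry1, Fosl1 and Dusp4. Nr4a3, an orphan nuclear receptor induced by calcium and NFAT, went from 13.3 ± 1.9 to 107 ± 40.4 CPM (log2 fold change 2.95, SE 0.24, adjusted p = 2.59e-07). Egr2 (1.42) and Egr3 (1.84), which restrain T cell activation, rose as well, while Egr1 was at 98.8 and 83.3 CPM with overlapping libraries (adjusted p = 0.282). Spry1, an inhibitor of receptor tyrosine kinase and MAP kinase signalling, rose from 2.62 ± 0.49 to 46.8 ± 17.9 CPM (log2 fold change 4.10, SE 0.30, adjusted p = 1.11e-07). Its relative Spry2 fell (-1.62). Fosl1, another AP-1 subunit, rose from 0.934 ± 0.129 to 8.64 ± 4.31 CPM (3.05) and the phosphatase Dusp4 by a log2 of 1.15. Within the phosphatase family the directions therefore split, since Dusp1 (-4.61), Dusp2 (-1.40), Dusp6 (-0.74) and Dusp10 (-1.01) fell. Calls that leaving out a mouse ended were those of Dusp4 (adjusted p = 0.263 without experiment 5), Dusp6 (0.199 without experiment 1) and Spry2 (0.159 without experiment 3). The promoter of Dusp1 is shown because it holds the palindromic cAMP response element TGACGTCA, in capitals, in the window from 250 bases before to 50 after the start of the gene (RefSeq, GRCm38.p6, chr17:26508423-26508722, minus strand, read 5′ to 3′).
Dusp1: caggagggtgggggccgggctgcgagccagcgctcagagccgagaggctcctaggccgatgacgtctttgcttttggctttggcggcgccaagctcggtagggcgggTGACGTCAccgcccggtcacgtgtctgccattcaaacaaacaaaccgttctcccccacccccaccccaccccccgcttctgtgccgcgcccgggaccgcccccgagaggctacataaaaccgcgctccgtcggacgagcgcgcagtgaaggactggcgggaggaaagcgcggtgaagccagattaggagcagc
That element, searched on both strands, was found in 2 of the 28 immediate-early genes with a window in the table (7.14%), Dusp1 and Btg2. It was in 3.3% of the 12064 tested genes with a window. A share that rests on 2 genes is not read as a trait of the list.

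Transcription factors of activation and fate moved in both directions, 12 of 33 up, 10 down and 11 not past the test (median 0.31). Irf4, whose level follows the strength of the receptor signal and which drives expansion, had 31.2, 60 and 30.3 CPM in the naive libraries and 391, 410 and 397 CPM at 24 h (log2 fold change 3.33, SE 0.49, adjusted p = 6.07e-05), with the activated libraries close together. Its relative Irf8 rose from 37.7 ± 10.3 to 233 ± 91.5 CPM (2.62). Myc, the driver of biosynthesis, had 171, 167 and 171 CPM in the naive libraries and 212, 302 and 277 CPM at 24 h (log2 fold change 0.63, SE 0.17, adjusted p = 0.00672). The naive values of Myc were nearly equal and lay below every activated one, and its adjusted p was 0.0619 without the mouse of experiment 3. Tbx21, which encodes T-bet, the factor of effector differentiation, rose from 8.27 ± 3.12 to 43.9 ± 27.5 CPM (log2 fold change 2.38, SE 0.56, adjusted p = 0.00273). Hif1a, the oxygen-sensitive regulator of glycolysis, rose from 99.5 ± 2.5 to 206 ± 21.2 CPM (1.05). The NF-kB subunits Nfkb1 (0.90), Nfkb2 (0.95), Rel (0.88) and Relb (0.62) rose together.

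Other factors of effector differentiation and lineage choice fell. Id2, which supports effector survival, went from 112 ± 2.86 to 27.2 ± 5.24 CPM (log2 fold change -2.06, SE 0.17, adjusted p = 2.91e-07). Id3, associated with memory precursors, went from 17 ± 0.587 to 47.7 ± 0.296 CPM (log2 fold change 1.49, SE 0.17, adjusted p = 5.61e-06). Prdm1, which encodes Blimp-1, went from 4.5 ± 1.38 to 0.56 ± 0.458 CPM (-3.16), Zeb2 from 9.35 ± 3.37 to 3.39 ± 1.3 CPM (-1.47), Gata3 from 28.7 ± 2.19 to 7.79 ± 0.469 CPM (-1.87) and Runx1 from 43.1 ± 2.84 to 10.7 ± 2.99 CPM (-2.05). Natural killer and myeloid cells also express Id2, Prdm1 and Zeb2, and the markers of those cells fell beside them (medians -4.70 and -2.72); their part in these falls was not tested.

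Genes of the naive and quiescent state fell as a group, 28 of 37 tested, with 3 rises and a median of -1.15. Il7r, the receptor for the survival cytokine interleukin 7, had 509, 498 and 652 CPM in the naive libraries and 53.7, 30.8 and 97.4 CPM at 24 h (log2 fold change -3.27, SE 0.45, adjusted p = 3.76e-05). Klf2, the quiescence factor that also keeps homing receptors transcribed, had 404, 463 and 454 CPM in the naive libraries and 54.8, 31.6 and 90.3 CPM at 24 h (log2 fold change -2.95, SE 0.32, adjusted p = 3.48e-06). In both genes the lowest naive value was above the highest activated value, and the activated library of experiment 5 held the most of both transcripts. Other large falls were in Ccr9, a gut homing receptor (207 ± 7.54 to 20.1 ± 10.2 CPM, -3.50), Igfbp4 (496 ± 71.2 to 58 ± 18.6 CPM, -3.13), Il6ra (259 ± 5.77 to 41.1 ± 8.55 CPM, -2.67), S1pr1, the receptor for exit from lymph nodes (506 ± 51.6 to 83.4 ± 52 CPM, -2.69), and Txnip, an inhibitor of glucose uptake (1013 ± 229 to 214 ± 88.7 CPM, -2.28).

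Tcf7, a factor of naive and stem-like T cells, fell by less, with 1484, 1326 and 1440 CPM in the naive libraries and 1037, 898 and 943 CPM at 24 h (log2 fold change -0.56, SE 0.18, adjusted p = 0.0185), with no overlap between the groups. Lef1 fell further (427 ± 14.6 to 194 ± 28.2 CPM, -1.15), and so did Foxo1 (347 ± 16.4 to 147 ± 16.9 CPM, -1.24). The rises were in Ccr7, Bach2 and Cdkn2c. Ccr7, the chemokine receptor that guides cells into lymph nodes, had 467, 536 and 444 CPM in the naive libraries and 801, 606 and 763 CPM at 24 h (log2 fold change 0.59, SE 0.14, adjusted p = 0.00357). The call for Ccr7 was lost without the mouse of experiment 1 (adjusted p = 0.0553) and that for Tcf7 without any 1 of the 3 mice (up to 0.0789). Bach2, a repressor that restrains effector differentiation, rose from 145 ± 19.7 to 245 ± 21.7 CPM (log2 fold change 0.77, SE 0.15, adjusted p = 0.000583). Cdkn2c, an inhibitor of the cyclin D kinases, rose from 3.48, 2.97 and 4.09 to 13.6, 17.2 and 10.1 CPM (log2 fold change 1.94, SE 0.22, adjusted p = 6.26e-06). Cdkn1b, which encodes p27 and holds resting T cells out of the cycle, went from 169, 202 and 157 to 72.9, 49.9 and 99.4 CPM (log2 fold change -1.24, SE 0.32, adjusted p = 0.00469).

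**Figure D3:**
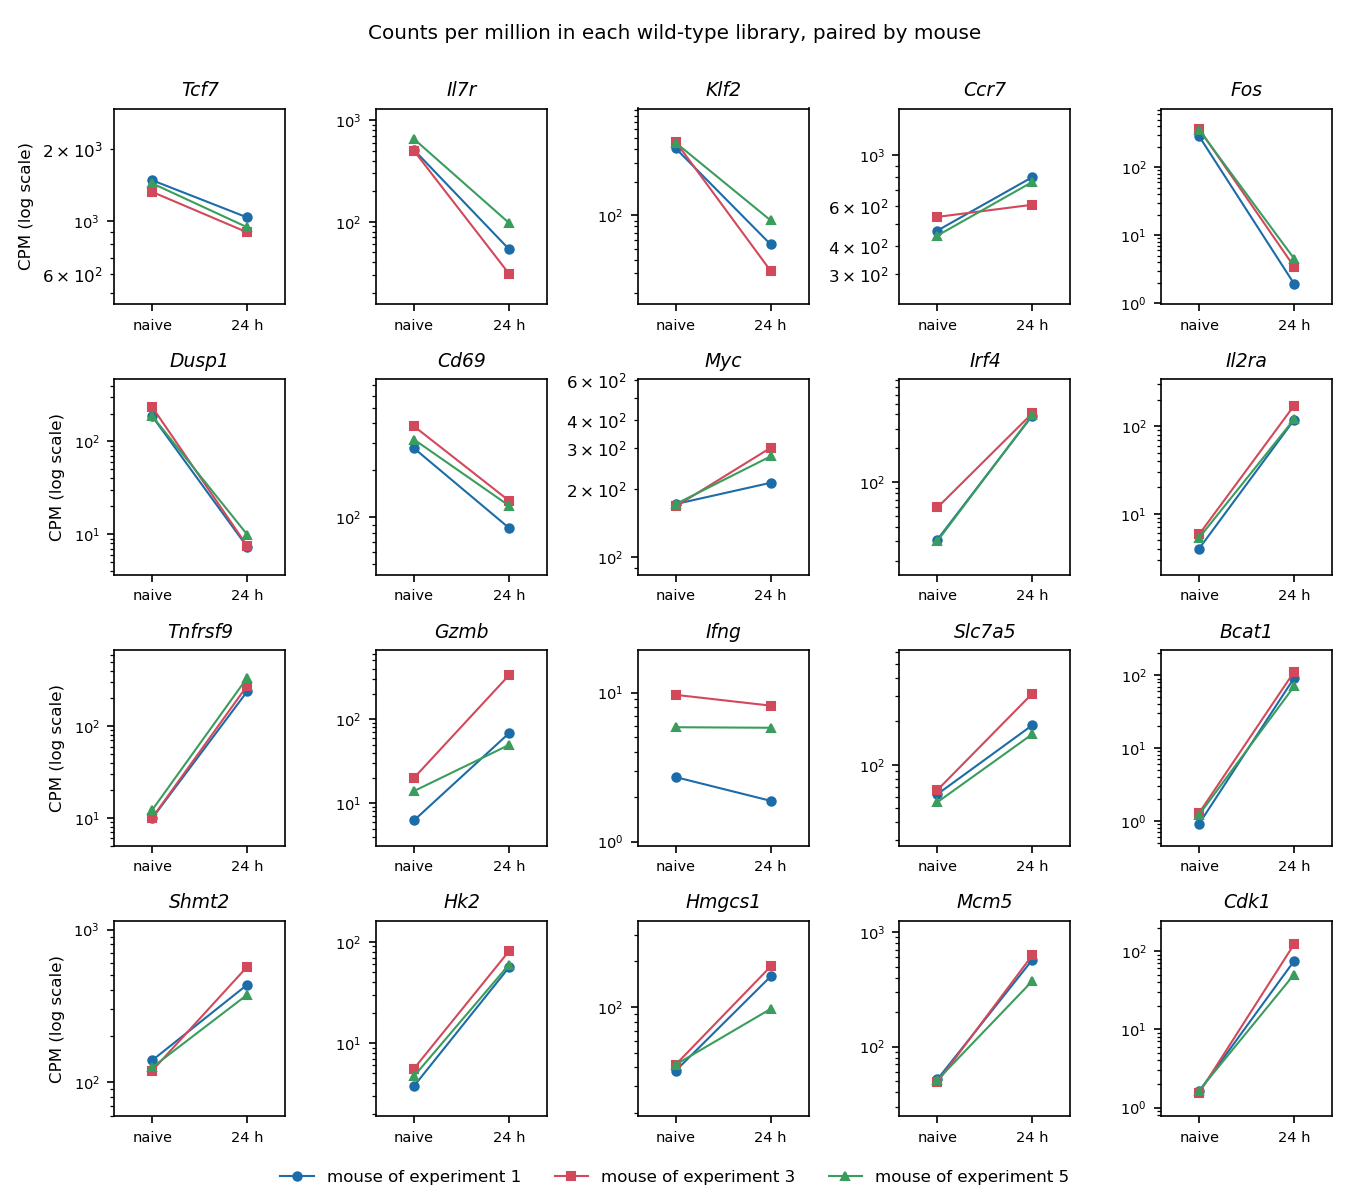
CPM (vertical axes, log scale) of 20 genes in the naive and 24 h wild-type libraries, with a line for each mouse. The lines of Fos, Dusp1, Il7r and Klf2 run down and those of Irf4, Il2ra, Bcat1, Mcm5 and Cdk1 run up in all 3 mice, while Ifng is nearly level.

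Of 29 homing and adhesion receptors 17 fell and 5 rose (median -0.93). Beside S1pr1 and Ccr9, the falls included Cxcr4, the receptor for the stromal chemokine CXCL12 (226 ± 87.5 to 13.8 ± 5.6 CPM, log2 fold change -3.97, SE 0.40, adjusted p = 1.88e-06), the integrin chains Itga4 (-1.70), Itgb7 (-1.26) and Itgae (-1.24), and Selplg, an adhesion ligand (-0.79). Cd44, the adhesion receptor that marks antigen-experienced cells, rose from 25.3 ± 7.93 to 43.7 ± 11.4 CPM (0.79) and Itgb1 from 78.5 ± 14.6 to 116 ± 14.1 CPM (0.58), but these calls were lost at 5 and 6 of 11 alternative settings (adjusted p up to 0.189 and 0.21, both without the mouse of experiment 1). The 5 rises of the list were 2 without that mouse and 3 without experiment 3 or under upper-quartile scaling. Ccr4 and Ccr8 also rose but stayed low, at 4.97 and 0.997 CPM at 24 h. Cx3cr1 (-4.70) and Ccr2 (-3.52), receptors of effector T cells and of monocytes, fell along with the myeloid markers, and the part of those cells was not tested.

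Receptors that tune activation were higher at 24 h for 15 of 33 genes and lower for 7 (median 0.73). Il2ra, the high-affinity chain of the interleukin 2 receptor, had 4.02, 5.84 and 5.34 CPM in the naive libraries and 118, 172 and 120 CPM at 24 h (log2 fold change 4.75, SE 0.34, adjusted p = 9.71e-08). Tnfrsf9, the costimulatory receptor 4-1BB, had 10, 10.1 and 12.3 CPM in the naive libraries and 239, 276 and 337 CPM at 24 h (log2 fold change 4.71, SE 0.17, adjusted p = 4.74e-10). The groups were far apart in both genes. Inhibitory receptors rose beside them, namely Lag3 (2.78 ± 0.577 to 136 ± 28.1 CPM, log2 fold change 5.61, SE 0.22, adjusted p = 6.3e-10), Pdcd1, which encodes PD-1 (2.1 ± 0.868 to 51.1 ± 4.91 CPM, 4.62), Tigit (2.51 ± 1.34 to 23.3 ± 3.23 CPM, 3.31) and Ctla4 (30.9 ± 10 to 105 ± 3.57 CPM, 1.81). Cd28 itself rose from 105 ± 14.7 to 523 ± 68.9 CPM (2.33), Icos from 42.7 ± 5.43 to 95.3 ± 5.47 CPM (1.16) and Tfrc, the transferrin receptor for iron uptake, from 88.6 ± 11.8 to 406 ± 117 CPM (2.18).

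Cd69, which is used as an early activation marker at the cell surface, was lower in RNA at 24 h. Its values were 277, 383 and 315 CPM in the naive libraries and 85.7, 128 and 119 CPM at 24 h (log2 fold change -1.56, SE 0.16, adjusted p = 2.4e-06), with no overlap and a fall in 3 of 3 mice. Havcr2 (-1.59), Klrg1 (-3.63), Cd244a (-2.80), Entpd1 (-2.54), Cd38 (-1.68) and Cd86 (-1.45) were the other members that fell, Havcr2 not without the mouse as a block (adjusted p = 0.0979) and Cd38 not with the experiment as the block (0.0946). These are also genes of natural killer, myeloid or B cells, whose markers fell beside them, and their part was not tested.

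Cytokine receptors and their signalling and feedback genes split between 9 rises and 16 falls among 32 genes (median -0.31). The chains for interleukin 12 rose, with Il12rb1 going from 11.8 ± 1.77 to 83.5 ± 29.8 CPM (2.79) and Il12rb2 from 6.54 ± 2.75 to 43.9 ± 21.1 CPM (2.72), as did Il2rb (219 ± 43.6 to 389 ± 94.1 CPM, 0.80) and Stat4, the transducer of interleukin 12 signals (0.80). Receptors for interleukins 6, 7, 18 and 27 and for TGF-beta fell, at -2.67 for Il6ra, -3.27 for Il7r, -2.17 for Il18r1, -1.03 for Il27ra and -1.55 for Tgfbr2. The common gamma chain Il2rg was at 815 and 738 CPM (adjusted p = 0.226). Among the feedback inhibitors, Socs1 (0.81) and Cish (0.99) rose and Socs3 fell from 146 ± 15 to 37.4 ± 16.6 CPM (-2.07). The call for Cish was lost without the mouse of experiment 1 (adjusted p = 0.0868).

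Effector genes did not move together at 24 h: 8 of 27 rose, 9 fell and 10 did not pass (median 0.42, or 0.06 when only the compared libraries were fitted). The number that rose was 5 without the mouse of experiment 1 or 5 and under upper-quartile scaling, RLE scaling or library size alone. Gzmb, which encodes the protease granzyme B, had 6.27, 20.1 and 14 CPM in the naive libraries and 68.1, 333 and 49.4 CPM at 24 h (log2 fold change 3.19, SE 0.51, adjusted p = 0.00012). Its activated values ran from 49.4 CPM in the mouse of experiment 5 to 333 CPM in that of experiment 3, and each was above all naive values. Ifng, interferon gamma, had 2.71, 9.66 and 5.86 CPM in the naive libraries and 1.88, 8.18 and 5.81 CPM at 24 h (log2 fold change -0.24, SE 0.67, adjusted p = 0.781), values that overlap throughout. Il2, the growth factor of T cells, had 0.0258, 0 and 0.095 CPM in the naive libraries and 0.438, 0.917 and 1.24 CPM at 24 h (log2 fold change 4.62, SE 0.93, adjusted p = 0.000826), which is low at both times. The chemokines Xcl1 (6.09 ± 1.81 to 173 ± 69.9 CPM, log2 fold change 4.78, SE 0.43, adjusted p = 6.92e-07) and Ccl4 (10.3 ± 6.38 to 46.3 ± 26.1 CPM, 2.15) and the cytokines Lta (1.03) and Tnfsf14 (2.14) rose. Ccl4 and Lta were near the threshold, with adjusted p up to 0.192 without experiment 1 and 0.112 without experiment 3.

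The falling effector genes were Gzma, Gzmk, Gzmm, Prf1, Ctsw, Nkg7, Tnfsf10, Ltb and Ccl5. Gzma, granzyme A, had 16.7, 66.6 and 74.6 CPM in the naive libraries and 0.382, 1.13 and 1.87 CPM at 24 h (log2 fold change -5.60, SE 0.34, adjusted p = 2.7e-08). Ccl5 went from 51.8 ± 25.2 to 9.83 ± 2.75 CPM (-2.28). Prf1, which encodes perforin, went from 58.7 ± 11.6 to 29.8 ± 13.5 CPM (-1.06) and Nkg7 from 209 ± 11.9 to 76.3 ± 30.4 CPM (-1.56). Natural killer cells and memory T cells express these genes too, and the natural killer markers Ncr1 (13.2 ± 7.15 to 0.243 ± 0.067 CPM, -5.67), Klrb1c (-4.94) and Tyrobp (-4.67) fell beside them. The part of such cells in the falls of effector genes was not tested. Both Gzma and Ncr1 were lowest in the naive library of experiment 1, at 16.7, 66.6 and 74.6 CPM for Gzma and 5.02, 17.9 and 16.8 CPM for Ncr1 over the 3 naive libraries.

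Of 26 genes of the receptor complex, its co-receptors and proximal kinases 6 rose and 7 fell, with a median of -0.19. The number that fell was 13 under upper-quartile scaling, 11 under library size alone, RLE scaling or DESeq2, and 4 without the mouse of experiment 5. Cd247, the zeta chain, went from 371 ± 31.8 to 205 ± 13.8 CPM (-0.86), Cd3g from 574 ± 113 to 380 ± 37.2 CPM (-0.59) and Lck, the kinase at the co-receptor, from 878 ± 53.4 to 610 ± 16.2 CPM (-0.53). The rises beside Cd28 were in Cd5, an inhibitory co-receptor (164 ± 11.1 to 356 ± 56.5 CPM, 1.12), Zap70 (0.60), Cd6 (0.58), Ubash3a (0.43, adjusted p = 0.0979 under upper-quartile scaling) and Ubash3b (0.93).

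DNA replication genes rose almost without exception. Of 47 tested, 46 were higher and 0 lower at 24 h (median 1.95, by mouse 2.01, 2.28 and 1.71), and Orc4, at 40.8 and 43.5 CPM, did not pass (adjusted p = 0.589). The subunits of the replicative helicase rose together, from Mcm2 (64.5 ± 5.58 to 367 ± 59.6 CPM, 2.50) to Mcm3 (65.1 ± 4.97 to 676 ± 131 CPM, 3.37), Mcm4 (2.52), Mcm6 (2.81) and Mcm7 (2.78). Mcm5, on GRCm38 chromosome 8, 75109569 to 75128439, had 51.9, 49.2 and 51.2 CPM in the naive libraries and 572, 627 and 374 CPM at 24 h (log2 fold change 3.33, SE 0.16, adjusted p = 4.29e-09). The naive values of Mcm5 were nearly equal, and the activated library of experiment 5 was below the other two. The loading factor Cdc6 went from 1.96 ± 0.713 to 103 ± 26.3 CPM (5.73) and the helicase cofactor Cdc45 from 3.39 ± 0.332 to 106 ± 25.7 CPM (4.96). The S phase checkpoint genes Clspn (5.33) and Chek1 (5.33) rose by similar amounts, while the loading factor Cdt1 rose less (59.6 ± 6.64 to 111 ± 31.6 CPM, 0.87). Subunits of the origin recognition complex differed widely, from Orc1 (4.55) and Orc6 (1.85) to Orc3 (0.47).

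Letters that E2F factors bind, TTTCCCGC or TTTGGCGC on either strand, were found in the promoter windows of 13 of the 38 replication genes with a window in the RefSeq table (34.2%), against 3.17% of the 12064 tested genes with a window and 1.8% of all 27025 genes in the table. The windows of 4 of these 13 members are shown with these letters in capitals. They were chosen after their values were seen, among genes with a match that belong to the helicase or load it. Mcm7 and Cdt1 also held a match and are not shown. The windows of Mcm2, Mcm10, Cdc45 and Orc1 held none. They are from GRCm38.p6, read 5′ to 3′ on the strand of the gene: Mcm3 at chr1:20820263-20820562 (minus), Mcm5 at chr8:75109259-75109558 (plus), Mcm6 at chr1:128359656-128359955 (minus) and Cdc6 at chr11:98907901-98908200 (plus).
Mcm3: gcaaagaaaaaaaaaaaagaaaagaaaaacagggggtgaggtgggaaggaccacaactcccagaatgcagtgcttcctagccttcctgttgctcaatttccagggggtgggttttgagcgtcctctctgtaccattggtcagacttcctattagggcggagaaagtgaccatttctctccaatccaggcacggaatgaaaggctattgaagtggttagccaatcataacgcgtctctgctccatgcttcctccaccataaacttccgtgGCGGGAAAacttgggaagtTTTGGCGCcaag
Mcm5: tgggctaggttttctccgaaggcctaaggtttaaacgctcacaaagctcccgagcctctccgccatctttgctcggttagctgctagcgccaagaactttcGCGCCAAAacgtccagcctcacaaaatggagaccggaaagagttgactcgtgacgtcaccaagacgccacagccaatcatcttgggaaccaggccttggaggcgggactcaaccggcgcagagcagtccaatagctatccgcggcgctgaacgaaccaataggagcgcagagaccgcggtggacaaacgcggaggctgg
Mcm6: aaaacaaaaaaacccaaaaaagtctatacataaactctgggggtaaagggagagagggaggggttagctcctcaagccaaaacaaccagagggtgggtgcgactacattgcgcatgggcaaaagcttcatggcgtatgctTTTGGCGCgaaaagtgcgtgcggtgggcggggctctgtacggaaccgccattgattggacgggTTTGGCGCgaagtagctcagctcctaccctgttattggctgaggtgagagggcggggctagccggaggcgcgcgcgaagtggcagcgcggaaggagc
Cdc6: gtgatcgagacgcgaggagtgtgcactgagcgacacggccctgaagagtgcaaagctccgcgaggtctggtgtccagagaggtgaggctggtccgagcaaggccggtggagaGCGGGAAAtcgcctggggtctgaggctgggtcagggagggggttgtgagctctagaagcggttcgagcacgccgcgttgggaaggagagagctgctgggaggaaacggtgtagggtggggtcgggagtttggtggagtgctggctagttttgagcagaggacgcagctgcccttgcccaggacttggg
Mcm3 and Mcm6 hold 2 matches each and the others 1. A match describes the letters and does not show that a factor was bound.

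Cyclins, their kinases and inhibitors and the RB and E2F proteins rose in 21 of 33 genes and fell in 6 (median 1.93). E2f1 went from 2.61 ± 0.377 to 64.3 ± 17.8 CPM (log2 fold change 4.61, SE 0.27, adjusted p = 1.7e-08). The repressors E2f7 (5.38) and E2f8 (5.16) rose as well. Ccne1 (19.2 ± 2.06 to 84.9 ± 28.9 CPM, 2.12) and Ccna2 (12.6 ± 1.21 to 152 ± 78.1 CPM, 3.49), the cyclins of S phase entry and passage, rose with their kinase Cdk2 (2.11). Among the cyclin D genes, which link growth signals to the cycle, Ccnd2 had 531, 583 and 512 CPM in the naive libraries and 717, 801 and 654 CPM at 24 h (log2 fold change 0.42, SE 0.20, adjusted p = 0.0891). Its groups did not overlap, but the change passed the test at 1 of 11 alternative settings only (lowest adjusted p = 0.0215). Ccnd1 fell from 3.68 ± 0.533 to 0.918 ± 0.188 CPM (-2.01), and the D-type kinases Cdk4 (131 ± 7.25 to 379 ± 60 CPM, 1.54) and Cdk6 (1.29) rose.

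Mitotic genes had the largest median of the lists described, 4.21, with 36 of 39 higher, 1 lower and 2 not past the test. Cdk1, the kinase that starts mitosis, had 1.61, 1.54 and 1.65 CPM in the naive libraries and 74.5, 122 and 50.1 CPM at 24 h (log2 fold change 5.63, SE 0.40, adjusted p = 8.29e-08). Mki67, the proliferation antigen Ki-67, went from 15.5 ± 2.08 to 503 ± 312 CPM (log2 fold change 4.86, SE 0.36, adjusted p = 1.34e-07). Top2a, the topoisomerase that untangles sister chromatids, went from 18.5 ± 1.37 to 719 ± 362 CPM (5.17). In Cdk1 the naive values were nearly equal and the activated ones differed between mice, with experiment 3 the highest and experiment 5 the lowest. Among genes of mitotic entry and progression, Ccnb1, cyclin B1, the partner of Cdk1, went from 0.303 ± 0.113 to 11.4 ± 7.69 CPM (5.12), Plk1 from 2.42 ± 0.372 to 29.4 ± 22.9 CPM (3.39) and Ube2c, a ubiquitin-conjugating enzyme of mitotic exit, from 1.1 ± 0.11 to 24.8 ± 20.5 CPM (4.29). Pttg1, which encodes securin, was the member that fell (35.9 ± 1.1 to 21.1 ± 2.17 CPM, log2 fold change -0.77, SE 0.17, adjusted p = 0.00155). The mitotic medians by mouse were 3.47, 4.49 and 3.12, again lowest in experiment 5.

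The box CCAAT that NF-Y binds, on either strand, was found in 26 of 33 mitotic genes with a window (78.8%) against 42.2% of tested genes with a window. The windows of Cdk1 (chr10:69352863-69353162, minus strand) and Bub1 (chr2:127831810-127832109, minus strand) are shown with the box in capitals, also chosen after their values were seen, as examples with 3 and 2 matches.
Cdk1: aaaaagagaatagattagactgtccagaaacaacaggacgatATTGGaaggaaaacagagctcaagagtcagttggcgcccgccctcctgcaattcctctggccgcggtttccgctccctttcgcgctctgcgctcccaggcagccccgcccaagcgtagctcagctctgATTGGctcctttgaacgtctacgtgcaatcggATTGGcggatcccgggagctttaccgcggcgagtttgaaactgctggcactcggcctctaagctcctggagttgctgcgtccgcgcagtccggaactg
Bub1: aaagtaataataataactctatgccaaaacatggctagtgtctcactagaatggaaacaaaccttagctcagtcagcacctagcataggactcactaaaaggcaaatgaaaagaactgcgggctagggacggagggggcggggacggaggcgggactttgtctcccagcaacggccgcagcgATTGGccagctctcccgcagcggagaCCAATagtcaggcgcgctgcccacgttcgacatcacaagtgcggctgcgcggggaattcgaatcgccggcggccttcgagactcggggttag
So short a sequence is common by its length alone, as the share over all tested genes shows. The box was also in 57.9% of replication genes, 46.4% of immediate-early genes and 31.8% of ribosome biogenesis genes with a window. In the cholesterol list 15 of the 16 genes with a window held it (93.8%), a higher share than in the mitotic list. The cholesterol list had a window for 16 of 21 genes, the smallest part among the lists searched. The box was thus not particular to mitotic genes, and no share was tested. The E2F letters were found in 6.06% of the 33 mitotic genes with a window.

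The 48 h libraries of the same mice were compared with the same 24 h libraries. Between 24 h and 48 h, 1886 genes (8.90%) passed the test, 990 higher and 896 lower. Of the mitotic genes 26 rose further and 0 fell (median 1.06), whereas 1 replication gene rose and 1 fell (median 0.01). Cdk1 reached 172, 151 and 191 CPM at 48 h (log2 change from 24 h 1.12, adjusted p = 0.0455), Ccnb1 40.6, 31.9 and 37.7 CPM (1.91, adjusted p = 0.00748) and Ube2c 123, 126 and 123 CPM (2.58, adjusted p = 0.00145). Mcm5 stood at 394, 373 and 292 CPM, below its 24 h values in every mouse (-0.56, adjusted p = 0.0302). Gzmb rose to 2077, 1950 and 1784 CPM (4.20, adjusted p = 0.000513) and Ifng to 53.7, 37.2 and 134 CPM (adjusted p = 0.00481). The mice that differed in Gzmb at 24 h were close at 48 h. Without the mouse of experiment 1 the number of calls between 24 h and 48 h was 239, and without that of experiment 5 it was 839.

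**Figure D4:**
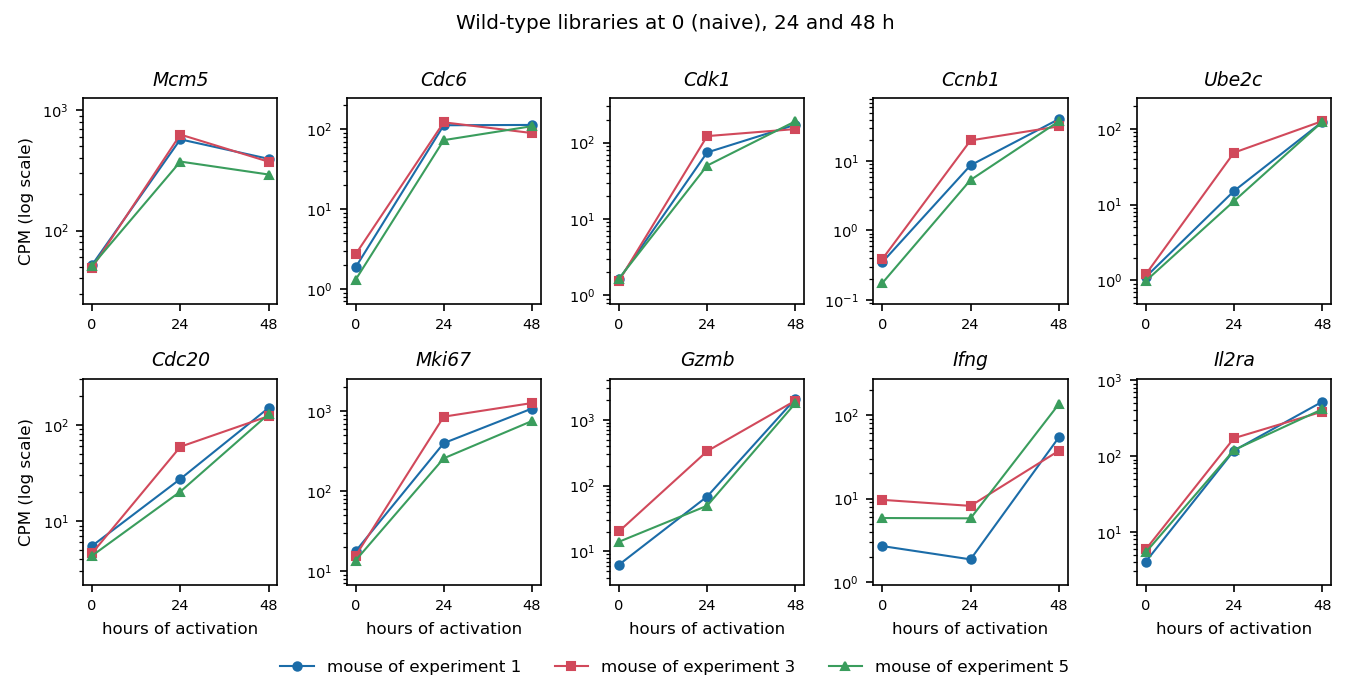
CPM (vertical axes, log scale) of 10 genes in the wild-type libraries against hours of activation (0 is naive), with a line for each mouse. Mcm5 is highest at 24 h in all 3 mice, while Ccnb1, Ube2c, Cdc20, Gzmb and Ifng are highest at 48 h in all 3 mice.

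Genes of biosynthesis rose at 24 h. Cholesterol synthesis rose in 18 of 21 enzymes with 0 falls (median 1.30, by mouse 1.20, 1.53 and 0.91). Hmgcs1, which makes the HMG-CoA that enters the pathway, had 38.1, 41.8 and 41.8 CPM in the naive libraries and 159, 185 and 97.2 CPM at 24 h (log2 fold change 1.80, SE 0.18, adjusted p = 1.89e-06), with no overlap and the smallest rise in experiment 5. Sqle, the epoxidase of squalene, went from 18 ± 0.586 to 79.9 ± 16.1 CPM (2.14) and Cyp51, the lanosterol demethylase, from 20.7 ± 2.54 to 148 ± 34.1 CPM (2.82). Of 19 genes of sterol sensing, uptake and efflux 6 rose and 5 fell (median 0.16, but -0.02 under upper-quartile scaling and -0.06 without the mouse of experiment 5). The number that rose was 2 without the mouse of experiment 1 and 3 without that of experiment 3, under upper-quartile scaling or with no mouse block. Stard4, a sterol carrier, rose (1.72), while the exporters Abca1 (65.6 ± 9.56 to 14.2 ± 2.68 CPM, -2.20) and Abcg1 (-0.85) and Mylip, a ubiquitin ligase that limits sterol uptake (-2.38), fell. Srebf2, the regulator of the pathway, was at 209 and 256 CPM (adjusted p = 0.12).

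Fatty acid synthesis rose in 16 of 24 genes and fell in 4 (median 0.88). Fasn, the synthase, went from 154 ± 19.8 to 486 ± 121 CPM (log2 fold change 1.65, SE 0.28, adjusted p = 0.000239) and Acaca, which makes its malonyl-CoA, rose as well (1.92). The desaturases Scd1 and Scd2 moved in opposite directions, Scd2 from 84.5 ± 14.3 to 361 ± 213 CPM (1.94) and Scd1 from 71.9 ± 23.9 to 15.9 ± 7.67 CPM (-2.26). Oxidation of fatty acids rose in 12 of 20 genes (median 0.57), but Cpt1a, the carnitine transferase that admits long chains into mitochondria, fell from 104 ± 11.7 to 49.8 ± 7.62 CPM (log2 fold change -1.06, SE 0.20, adjusted p = 0.00061).

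Genes of glycolysis, glucose transport and lactate handling rose in 18 of 28 (median 1.01), with 3 falls (1 without the mouse of experiment 1). Hk2, the inducible hexokinase, had 3.76, 5.59 and 4.7 CPM in the naive libraries and 55.8, 80.8 and 59.4 CPM at 24 h (log2 fold change 3.80, SE 0.29, adjusted p = 1.75e-07). Ldha, lactate dehydrogenase, went from 285 ± 29.8 to 1198 ± 223 CPM (log2 fold change 2.06, SE 0.16, adjusted p = 1.52e-07), Pkm, pyruvate kinase, from 277 ± 10.9 to 1118 ± 242 CPM (1.98), Tpi1 from 39.2 ± 3.43 to 331 ± 110 CPM (3.02) and the lactate exporter Slc16a1 from 46.2 ± 6.53 to 171 ± 26.5 CPM (1.89). The glucose transporters did not pass the test. Slc2a1 had 37.6, 44.9 and 34.5 CPM in the naive libraries and 43.3, 56.1 and 42.6 CPM at 24 h (adjusted p = 0.121). Slc2a3 had 74.6, 84.3 and 71.6 CPM in the naive libraries and 43.7, 53.1 and 57.7 CPM at 24 h (adjusted p = 0.177). It lay below naive in all 3 mice and passed the test when only the compared libraries were fitted (adjusted p = 0.00385). Pdk1, a kinase that inhibits pyruvate dehydrogenase, fell (342 ± 30.9 to 195 ± 7.32 CPM, -0.81). Gapdh was counted at 18.3 and 18.2 CPM (adjusted p = 0.847). It has many near-identical pseudogene copies, so its counts are uncertain, as they are for other genes with such copies (Pgk1, Pgam1 and many ribosomal proteins).

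The list of carriers, mostly of amino acids, and of the branched-chain transaminases Bcat1 and Bcat2 rose in 16 of 19 genes (median 0.97). Slc7a5, the carrier of large neutral amino acids, had 62.7, 67 and 55.2 CPM in the naive libraries and 188, 311 and 163 CPM at 24 h (log2 fold change 1.81, SE 0.20, adjusted p = 5.53e-06). Slc3a2, the heavy chain that pairs with it, was at 148 and 158 CPM (adjusted p = 0.728). Slc1a5, a glutamine carrier, rose from 220 ± 6.85 to 432 ± 26.7 CPM (0.97) and Slc43a3, a purine base transporter, from 2.81 ± 0.707 to 45.7 ± 17.3 CPM (3.99), while Slc38a2 (-0.66) and Slc36a1 (-1.02) fell. Bcat1 rose far more than Bcat2, its mitochondrial counterpart (32.5 ± 1.09 to 54.2 ± 3.88 CPM, 0.73).

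Serine and one-carbon metabolism, which supplies methyl and formyl groups for nucleotides, rose in 12 of 20 genes with 0 falls (median 1.91). Shmt2, the mitochondrial enzyme that splits serine, had 139, 119 and 125 CPM in the naive libraries and 435, 571 and 374 CPM at 24 h (log2 fold change 1.85, SE 0.17, adjusted p = 7.29e-07). Psat1 (30.9 ± 1.11 to 293 ± 67.3 CPM, 3.23) and Phgdh (28.5 ± 2.06 to 113 ± 26.8 CPM, 1.97) of serine synthesis rose with Mthfd2 (28.5 ± 2.57 to 159 ± 39.7 CPM, 2.48). Nucleotide synthesis rose in 20 of 26 (median 1.59), led by Rrm2, the regulated subunit of ribonucleotide reductase (5.35 ± 0.516 to 245 ± 95.8 CPM, log2 fold change 5.48, SE 0.47, adjusted p = 4.15e-07), and Tyms, thymidylate synthase (3.91 ± 0.72 to 90.7 ± 35 CPM, 4.53). Its partner subunit Rrm1 rose from 41.9 ± 2.04 to 521 ± 144 CPM (3.62), and Rrm2b, the form used outside S phase, was the member that fell (39.8 ± 1.13 to 16 ± 2.24 CPM, -1.31). Between 24 h and 48 h, 0 nucleotide genes passed the test in either direction.

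Ribosome assembly and mitochondrial translation rose while cytosolic ribosomal proteins stayed near the median of all genes. Ribosome biogenesis factors rose in 46 of 49 (median 1.18), among them Ncl, nucleolin (980 ± 62.4 to 3868 ± 482 CPM, log2 fold change 1.99, SE 0.17, adjusted p = 3.28e-07), Npm1 (279 ± 24.4 to 939 ± 121 CPM, 1.75) and Nolc1 (1.90). Mitochondrial ribosomal proteins rose in 71 of 78 (median 0.94), among them Mrps6 (2.49), Mrpl15 (1.42) and Mrpl44 (1.20). Of 81 cytosolic ribosomal proteins 7 rose, 18 fell and 56 did not pass (median -0.09, or 0.02 without the mouse of experiment 5). Over the alternatives the rises ran from 2 (without experiment 3) to 9 (without experiment 5) and the falls from 10 (without experiment 1) to 27 (the other scalings and DESeq2). Rps27l, a p53-responsive relative of Rps27, rose from 18.3 ± 4.67 to 76.3 ± 5.7 CPM.

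The nuclear genes of the respiratory chain rose in 55 of 65 with 0 falls, by a median of 0.82 (0.90, 1.04 and 0.52 by mouse). Atp5b, the catalytic subunit of ATP synthase, went from 678 ± 42.7 to 1500 ± 217 CPM (log2 fold change 1.14, SE 0.12, adjusted p = 2.65e-06), Sdhb of complex II from 65.8 ± 7.78 to 155 ± 9.65 CPM (1.25) and Cox5a of complex IV from 60.4 ± 7.39 to 165 ± 11.5 CPM (1.47). The genes of the mitochondrial genome did not follow: mt-Nd1 rose from 2569 ± 697 to 3616 ± 350 CPM (log2 fold change 0.53, adjusted p = 0.0251), while mt-Co1 was at 11494 and 7716 CPM (adjusted p = 0.0784) and mt-Cytb at 5099 and 3616 CPM (adjusted p = 0.0797). These 3 depend on the setting, since mt-Nd1 lost its call at 7 of 11 (adjusted p up to 0.239) and mt-Co1 and mt-Cytb were called lower at 6 and 3 (down to 0.0233 and 0.0171). Of the 12 genes of the mitochondrial genome tested 0 were called lower, but 5 were under upper-quartile scaling. The share of all counts on the mitochondrial genome was 2.57%, 2.28% and 3.51% in the naive libraries and 2.22%, 2.07% and 2.02% at 24 h. Several mitochondrial genes, mt-Co2 among them, had under 1 CPM in every group, so their counts are not read as levels.

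Proteins of contacts between mitochondria and the endoplasmic reticulum and of calcium transfer, the subject of the series, changed in both directions, 15 up and 6 down of 28 (median 0.33). The channel of the outer mitochondrial membrane Vdac1 rose from 88.8 ± 10.9 to 266 ± 41.9 CPM (log2 fold change 1.58, SE 0.14, adjusted p = 8.87e-07), the mitochondrial chaperone Hspa9, which tethers it to calcium channels, from 295 ± 11 to 842 ± 148 CPM (1.51), and the calcium uniporter Mcu from 12.5 ± 1.19 to 27.6 ± 0.748 CPM (1.15). The calcium channels of the endoplasmic reticulum fell, with Itpr1 at -0.51 (adjusted p = 0.113 without experiment 1), Itpr2 at -1.51 and Itpr3 at -1.06 (265 ± 33.1 to 125 ± 9.2 CPM). Mfn2, a mitofusin, rose from 53.2 ± 1.13 to 81.7 ± 6.91 CPM (0.62). Tcaim itself had 15.2, 14.6 and 14.7 CPM in the naive libraries and 9.86, 8.38 and 10.1 CPM at 24 h (log2 fold change -0.65, SE 0.20, adjusted p = 0.0152), a fall in 3 of 3 wild-type mice with no overlap between groups. The call was lost without the mouse of experiment 1 or 3 (adjusted p up to 0.0725).

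Chaperones and the proteasome rose. Of 38 genes of the unfolded protein response and chaperones 25 rose and 5 fell (median 1.03). Hsp90ab1 went from 1908 ± 44.2 to 6156 ± 687 CPM (log2 fold change 1.68, SE 0.11, adjusted p = 4.75e-08) and entered the 10 highest genes by deposited FPKM at 24 h (2297 ± 275), where mt-Co1, mt-Nd1 and Eef1a1 led. Hspd1, the mitochondrial chaperonin, rose from 107 ± 5.44 to 668 ± 108 CPM (2.65) and Asns, asparagine synthetase, from 0.485 ± 0.142 to 18.9 ± 18.2 CPM (4.97). Hspa5, the chaperone BiP, was at 708 and 740 CPM (adjusted p = 0.84), and the stress genes Ppp1r15a (487 ± 81.5 to 25.4 ± 5.47 CPM, -4.28), Dnajb9 (-3.41) and Atf4 (-0.53, adjusted p = 0.168 without experiment 1) fell. Proteasome subunits rose in 35 of 37 with 0 falls (median 1.07), including Psma5 (1.71) and Psmd1 (1.63).

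Survival genes of the BCL2 family moved in both directions. Bcl2, the survival protein of naive cells downstream of interleukin 7, fell from 212 ± 12.6 to 81.2 ± 3.61 CPM (log2 fold change -1.38, SE 0.25, adjusted p = 0.000394). Bcl2l1, which encodes BCL-XL, rose from 12.4 ± 1.46 to 61.5 ± 13.1 CPM (log2 fold change 2.31, SE 0.30, adjusted p = 1.85e-05) and Bcl2a1b from 12.2 ± 2.27 to 80.2 ± 11.9 CPM (2.73), a member of a family of near-identical copies. The death effectors Bax (0.96) and Bak1 (0.79) and the sensor Bcl2l11, which encodes BIM (0.74), rose, and Pmaip1 (-0.80) and Bbc3 (-0.73) fell. Leaving out a mouse ended the calls of Bcl2l11 (adjusted p = 0.11 without experiment 1), Pmaip1 (0.197 without experiment 3) and Bbc3 (0.148 without experiment 3). In all, 8 of 17 members rose and 3 fell (median 0.62). The rises were 5 without the mouse of experiment 1 or under upper-quartile scaling, and the falls ran from 1 without experiment 3 to 5 without experiment 5 or in DESeq2.

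Interferon-related genes divided by class in the calls of their members. Of 33 genes induced by type I interferon 27 fell and 1 rose (median -1.83, by mouse -1.72, -1.97 and -1.11). The highest log2 fold change in the list was 1.235. The summed level of the list did not fall in every mouse. It was 2384, 2584 and 2381 CPM in the naive libraries and 2614, 2196 and 2835 CPM at 24 h. Irf7, the amplifier of the response, went from 97.6 ± 7.11 to 13.5 ± 9.25 CPM (log2 fold change -3.10, SE 0.43, adjusted p = 3.82e-05), Rsad2 from 13.2 ± 5.03 to 0.486 ± 0.189 CPM (-4.82), Mx1 from 30.8 ± 10.5 to 4.12 ± 0.999 CPM (-2.90) and Ddx58, the RNA sensor RIG-I, from 189 ± 10.8 to 37.6 ± 14.1 CPM (-2.38). Bst2, tetherin, did not pass, at 49.7 and 59.6 CPM (adjusted p = 0.273). The interferon-inducible GTPases went the other way, 10 of 16 up with 0 falls (median 0.95), led by Gbp2 (129 ± 5.27 to 1131 ± 14.7 CPM, log2 fold change 3.13, SE 0.38, adjusted p = 1.24e-05), Gbp5 (45.6 ± 3.55 to 286 ± 20.5 CPM, 2.65) and Igtp (201 ± 9.27 to 760 ± 47.1 CPM, 1.91). Ifng, whose product induces these GTPases, did not pass the test at 24 h. Myeloid cells also express genes of the type I class, and their markers fell beside it (median -2.72); their part was not tested.

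**Figure D5:**
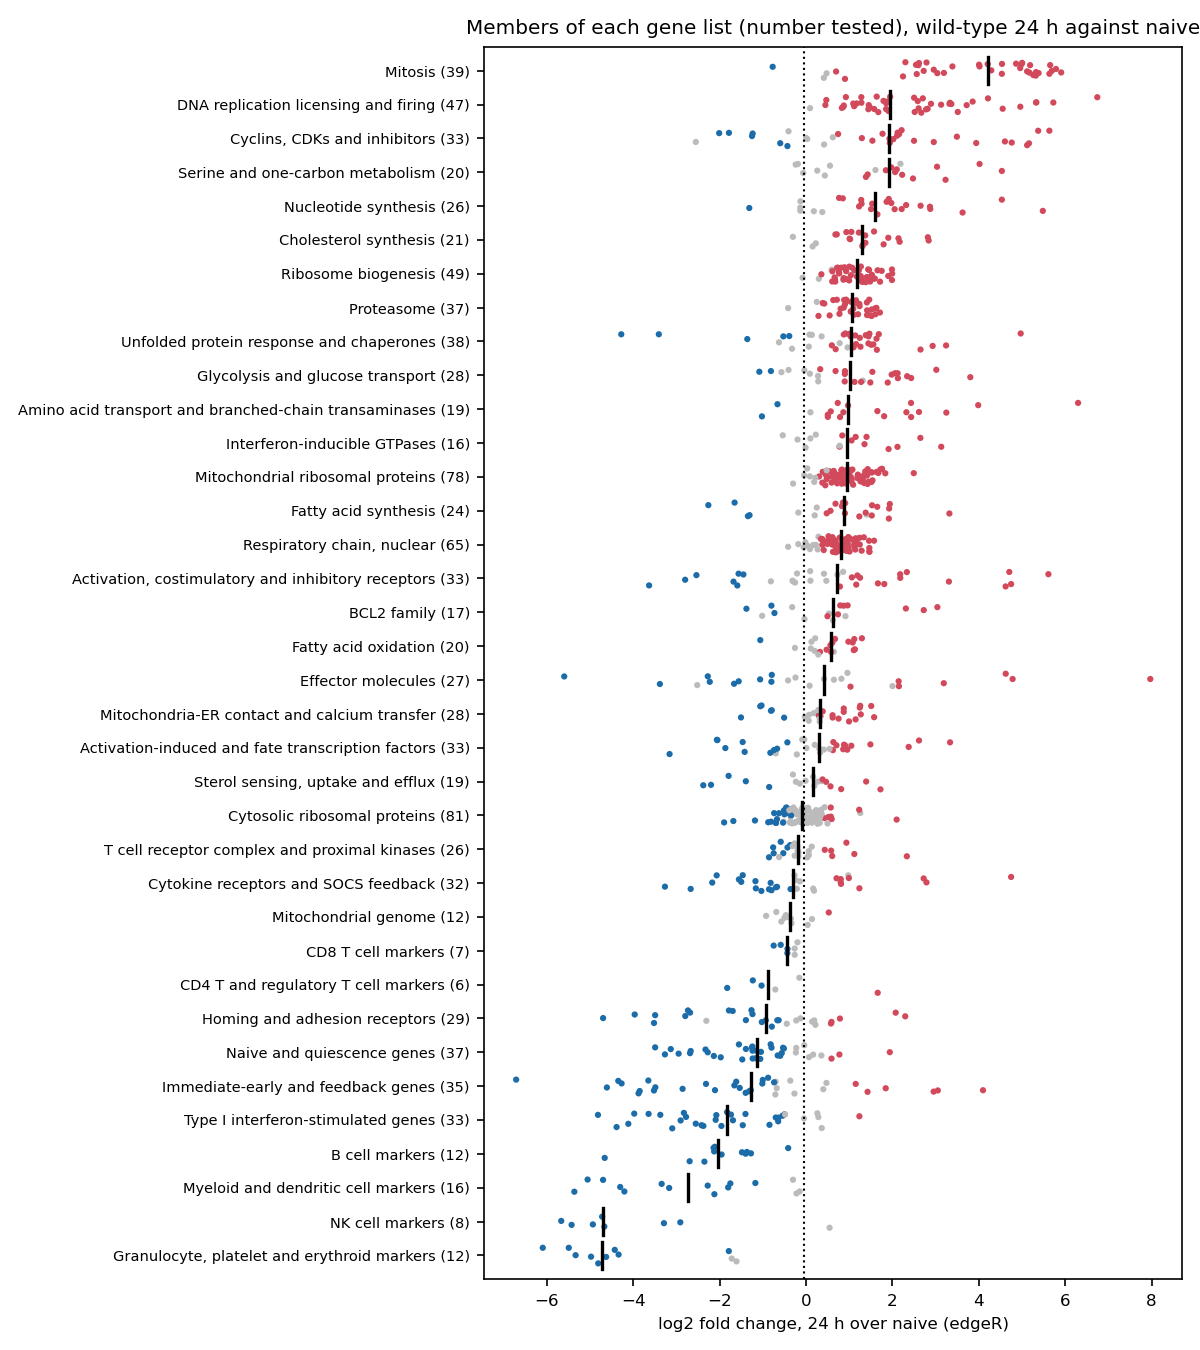
Log2 fold change of 24 h over naive (horizontal axis) for each tested member of the gene lists (rows, ordered by median, with the number tested in parentheses). Red and blue points passed the test, grey points did not, black bars are medians and the dotted line is the median of all tested genes (-0.05), and members at 0 in every library of a group are not drawn. Mitosis has the highest median (4.21).

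The wild-type response was set against that of Tcaim knock-in mice of the same experiments by a test of the difference between the 2 responses. That test called 0 of 21183 genes (0.00%) in edgeR, with 924 genes at an unadjusted p under 0.05, 2 genes when only the compared libraries were fitted, and 11 genes in DESeq2. With a term for the response of each experiment, added after the data were seen, edgeR called 0 genes, with 1241 at an unadjusted p under 0.05. A missed threshold does not show that the responses were alike.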

How the data were processed

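Poly(A) RNA of 22 libraries from 8 mice was sequenced from stranded TruSeq mRNA libraries, per the labels' protocols. The authors' gene counts were used as deposited, and per the submitters' processing notes bcl2fastq 2.20.0, TopHat2 2.1.0, Bowtie2 2.2.5, SAMtools 0.1.19, featureCounts and DESeq2 1.6.3 were used with GRCm38 (mm10). The gene annotation and the strand setting of the counting are not given in the sources used here, so overlapping genes (4 of the 24 genes with the largest changes) are uncertain. The deposited log2 values equal log2 of the count over a size factor plus 1, and were used only to check that relation. The deposited FPKM equal that normalised count over gene length, not per library total, and were used only to compare levels between genes.

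Counts of all 22 libraries were fitted with edgeR 4.0.16 (R 4.3.3) after TMM scaling and its default filter (minimum count 10, minimum total 15). The model held the mouse as a block and separate terms for each activated time in wild-type, knock-in and knockout-labelled mice. It had 9 residual degrees of freedom, and p-values were adjusted over 21183 genes. The naive and 24 h libraries of an experiment come from 1 mouse. Their deviations from the group means correlated at 0.119, 0.085 and 0.109 across genes (naive to 24 h of experiments 1, 3 and 5). Libraries of different mice gave -0.095 to -0.00631. Deviations from a group mean cancel within the group, so positive values within mice go with negative ones between mice by construction. Counts of replicates differed by more than sampling noise in every pair (chi-square per degree of freedom at least 26.2). Library totals of 62551905 counts or more left counting error small beside the spread between mice except for genes with few counts. The code was tested on simulated data.

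The 12 largest rises and 12 largest falls were named among called genes. Those genes had no overlap between groups, at least 20 CPM in the higher group and a place in the authors' list of genes with symbols. That list held 14321 of the 21183 tested genes. Also named were leading or defining members of 36 lists and the 10 genes highest in FPKM. Not every gene that this rule takes is printed, and Hsp90ab1, Eef1a1 and the examples of smaller changes within lists were chosen after their values were seen. The libraries compared and the lists were chosen with earlier results of these data known. Alternatives were other scalings, blocks, filters and libraries, each mouse left out, and DESeq2 1.42.0. Some members of the lists are counted but not reported here by name.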

Additional observations from a re-analysis of the deposited data

Results flagged for a closer look

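In 2 of the 266 genes named, as in 175 of all 21183 tested genes, every wild-type mouse moved one way between naive and 24 h and every Tcaim knock-in mouse of the same experiments the other way. Tcaim changed in wild-type mice by a mean log2 of -0.63 (-0.60, -0.77 and -0.52 in experiments 1, 3 and 5). In knock-in mice it changed by 0.59 (0.71, 0.71 and 0.34). Tcaim is the gene that the knock-in alters, and the part of the altered allele in its counts was not tested. Bst2 changed in wild-type mice by 0.26 (0.20, 0.28 and 0.29) and in knock-in mice by -0.95 (-1.04, -1.06 and -0.76). These per-mouse values are differences of log2 of CPM plus 0.5. The edgeR test of the difference between the 2 responses called neither gene, with a difference of 1.24 and adjusted p = 0.86 for Tcaim and of -1.22 and adjusted p = 0.856 for Bst2.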

How the results depend on the processing

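The count of called genes between naive and 24 h stayed within 1.5 times of 10798 at all 11 alternatives, from 7618 to 10078 with 1 mouse left out, and from 10143 (no filter on low counts) to 11560 (DESeq2) at the others. Without the pairing of libraries by mouse, that is with no replicate block, it was 10247, with 1578 calls between 24 h and 48 h and 0 for the difference between genotypes. Between 24 h and 48 h, leaving out 1 mouse gave 239 to 1893 calls and DESeq2 gave 3022, against 1886. The difference between wild-type and knock-in responses had 0 calls, but 2 with the compared libraries alone and 11 in DESeq2, and 0 with a response for each experiment, a term added after the data were seen. The cause of these shifts was not tested. Of 247 named genes that were called, 222 stayed called at every alternative and 0 reversed. Of 19 named genes that were not called, 7 were called at some alternative. Directions reversed in uncalled genes only. By log2 fold change, upper-quartile scaling gave -0.125 for Hspa5, -0.092 for Orc4 and -0.084 for Slc3a2, library size alone gave -0.016 for Hspa5, and no filter on low counts gave 0.010 for Eef1a1. With 1 mouse left out, the values ran from -0.008 to 0.139 for Hspa5, from -0.198 to 0.141 for Gapdh, from -0.078 to 0.026 for Eef1a1 and from -0.670 to 0.000 for Egr1. Of 396 medians of lists at the alternatives, 41 moved by more than the spread between mice.

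With 3 mice, of which 1 was female, a missed threshold does not show a lack of change. Genes with few counts at 1 time have uncertain fold changes. Counts of genes with near-identical copies are uncertain.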
